A study of Mus musculus with 9 samples.

Results

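The hair follicle stem cell genes described here are 10 genes, chosen by name as markers and regulators of the stem cells of the mouse hair follicle, of the 49585 genes in each deposited table. All 10 were in the tables and all 10 passed the filter on low counts. RNA of whole mouse skin was sequenced in 9 libraries, 3 in each of 3 groups. The first group was labelled IL-6 KO, with strain C57BL/6 and genotype IL-6 -/-, so both alleles of the cytokine gene Il6 are given as deficient. The second was BALB/c and the third C57BL/6, both without a named mutation. All mice came from the same supplier, entered the experiment aged 6 weeks and had skin taken on day 8, after shaving on day 0 and 7 days without treatment. The labels list 6 IL-6 KO mice, 3 BALB/c mice and 3 C57BL/6 mice and do not tie a library to a mouse, and the sex of the mice and the design of the knockout allele are not given. The p-values therefore measure the spread between libraries, which may be partly technical.

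Hair follicles cycle between growth (anagen), regression (catagen) and rest (telogen). The stem cells that rebuild the follicle rest in the bulge and the hair germ below it, and further stem cell pools lie in the isthmus above. Wnt signals, amplified by R-spondins acting through LGR receptors and read out by TCF and LEF factors on the DNA, start growth, whereas BMP and FGF signals keep the bulge quiescent.

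The following facts about the libraries bear on each value below. Total exon reads ranged from 3843953 to 4476346 in the IL-6 KO-labelled libraries, from 6115739 to 6242332 in BALB/c and from 6083876 to 6882193 in C57BL/6. Il6 itself had 6, 24 and 1 reads in the IL-6 KO-labelled libraries, 0, 2 and 0 reads in BALB/c and 2, 1 and 0 reads in C57BL/6, so the reads of the targeted gene went against the label. As the design of the allele is not given, it cannot be told whether these reads lie outside a deleted part. The group is called by its label throughout. The IL-6 KO-labelled tables also have another column layout than the other 6, so group and processing cannot be told apart. BALB/c replicate 2 had 130 reads of Xist, an RNA of the inactive X chromosome, against at most 5 in each other library, and the fold changes of the 10 genes and the list counts that use BALB/c are also given without it, while levels, ratios and ranges include it. Keratinocyte transcripts were abundant in each library: Krt5 and Krt14, the keratins of basal epidermis and outer root sheath, summed to 4098 to 6933 CPM in IL-6 KO-labelled skin, 5094 to 6452 CPM in BALB/c and 4281 to 6738 CPM in C57BL/6. CPM, here and below, are counts scaled to library size and TMM factors.

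The 10 genes did not move as a block. In IL-6 KO-labelled skin against C57BL/6, 4 of the 10 were higher (Lgr5, Lhx2, Tbx1 and Foxc1), 2 were lower (Lgr6 and Nfatc1) and 4 were not called at an adjusted p of 0.05 in edgeR's quasi-likelihood test. Among all 14415 genes tested, 35.2% were called in that comparison, 19.2% higher and 16.0% lower. In BALB/c against C57BL/6, none of the 10 was higher and 2 were lower (Lgr5 and Tcf7l1), where 3.41% of all genes were called, 1.63% higher and 1.78% lower. In IL-6 KO-labelled skin against BALB/c, 6 were higher (Lgr5, Sox9, Lhx2, Tcf7l1, Tbx1 and Foxc1) and 2 lower (Lgr6 and Nfatc1), where 37.3% of all genes were called, 19.9% higher and 17.4% lower. The median log2 fold changes over the 10 genes were 0.59, -0.60 and 1.01 in these 3 comparisons, against 0.01, -0.01 and 0.01 over all genes tested. Each pair of comparisons shares a group of libraries. With library size alone as the scaling, the median over all genes in IL-6 KO against C57BL/6 moved to 0.15, and 67.8% in place of 54.6% of the calls were on the higher side. In BALB/c against C57BL/6 that scaling put 58.8% in place of 47.9% of the calls on that side, and 1 of the 10 genes and 2.68% of all genes were then called.

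**Figure D1:**
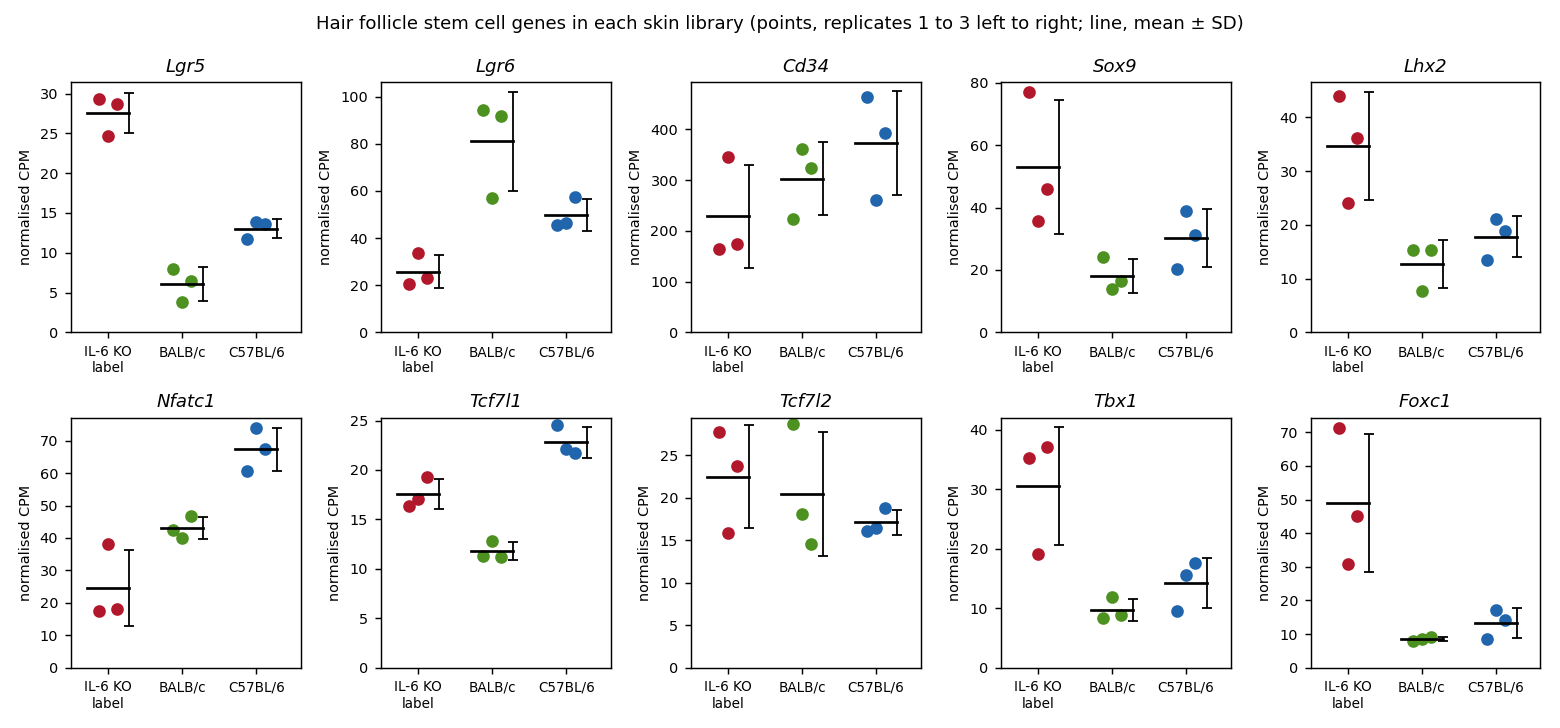
Normalised CPM of the 10 genes (y axis, linear, from 0) in the IL-6 KO-labelled libraries, BALB/c and C57BL/6 (x axis). Points are libraries, the horizontal line is the group mean and the bar beside it the SD. Lgr5 in IL-6 KO-labelled skin lies between 24.6 and 29.4 CPM, above each other library, while Lgr6 lies between 20.6 and 33.6 CPM, below each other library.

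The regions upstream of 4 of these genes are shown because 3 belong to genes that were higher in the IL-6 KO-labelled libraries than in both other groups (Foxc1, Lhx2 and Tbx1) and 1 to a gene that was lower there than in both (Lgr6). Lgr5, also higher than in both, and Nfatc1, also lower than in both, had no promoter entry and are not shown. Each is the 250 bases before a start site in RefSeq (GRCm38.p6), written 5′ to 3′ on the strand of the gene. The positions are chr13:31806396-31806645 on the plus strand for Foxc1, chr2:38339031-38339280 on the plus strand for the upstream start of Lhx2, chr16:18590672-18590921 on the minus strand for the upstream start of Tbx1, and chr1:135105277-135105526 on the minus strand for Lgr6. Capitals mark matches to the short motifs searched. Both RefSeq starts of Tbx1 lie upstream of position 18586969, where the gene as counted begins. The Tbx1 window not shown, chr16:18588850-18589149, held no match.
Foxc1: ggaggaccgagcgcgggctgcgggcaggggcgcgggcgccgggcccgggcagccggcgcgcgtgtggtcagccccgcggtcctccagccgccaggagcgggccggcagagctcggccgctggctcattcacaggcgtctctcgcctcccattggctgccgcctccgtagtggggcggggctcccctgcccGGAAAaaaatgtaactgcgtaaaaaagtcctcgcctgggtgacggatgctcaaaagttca
Lhx2: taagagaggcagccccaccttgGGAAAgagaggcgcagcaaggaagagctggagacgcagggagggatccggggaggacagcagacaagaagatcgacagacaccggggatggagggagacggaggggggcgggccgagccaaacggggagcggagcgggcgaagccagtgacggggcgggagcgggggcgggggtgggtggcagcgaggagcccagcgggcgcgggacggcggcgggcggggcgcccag
Tbx1: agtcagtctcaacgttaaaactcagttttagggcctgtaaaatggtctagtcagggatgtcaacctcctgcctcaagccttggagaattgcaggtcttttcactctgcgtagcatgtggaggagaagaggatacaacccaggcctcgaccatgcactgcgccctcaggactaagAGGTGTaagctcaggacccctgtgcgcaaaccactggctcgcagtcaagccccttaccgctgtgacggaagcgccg
Lgr6: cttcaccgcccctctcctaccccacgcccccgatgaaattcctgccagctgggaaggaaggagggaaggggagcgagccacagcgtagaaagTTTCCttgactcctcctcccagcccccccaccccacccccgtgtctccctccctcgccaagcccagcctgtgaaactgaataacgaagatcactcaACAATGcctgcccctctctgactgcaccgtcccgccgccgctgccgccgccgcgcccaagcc

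The search read windows of 300 bases, 250 before and 50 after each start, on both strands, and 7 of the 10 genes had an entry, with 10 windows between them. The TCF and LEF core CTTTGA was in 0 of the 10 windows and in 16.0% of all 32851 RefSeq promoters. The SOX core ACAATG was in 2 windows, of Lgr6 and Tcf7l2, against 12.6% of all promoters. The NFAT core GGAAA, or TTTCC on the other strand, was in 6 windows, of Cd34, Foxc1, Lgr6, Lhx2 and Tcf7l2, against 61.3% of all promoters. The T-box core AGGTGT was in 2 windows, of Cd34 and Tbx1, against 13.7%. The LIM homeodomain core TAATTA and the forkhead core GTAAACA were in 0 windows, against 5.29% and 3.65% of all promoters. A match is a run of letters and is not evidence of binding.

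Lgr5 and Lgr6 encode receptors for R-spondins that raise the response of a cell to Wnt. In mouse skin Lgr5 marks stem cells of the lower bulge, the hair germ and, during growth, the outer root sheath, and Lgr6 marks cells of the isthmus and of the interfollicular epidermis. Lgr5 (chromosome 10, positions 115450311 to 115587780, minus strand, GRCm38) stood at 29.4, 24.6 and 28.7 CPM in the IL-6 KO-labelled libraries, 7.96, 3.82 and 6.49 CPM in BALB/c and 11.7, 13.9 and 13.6 CPM in C57BL/6. The 3 groups did not overlap: the IL-6 KO-labelled libraries were highest and BALB/c lowest. Lgr5 was 2.11-fold higher in IL-6 KO-labelled skin than in C57BL/6 (log2 1.08 ± 0.23 SE, adjusted p = 0.00663) and 4.50-fold higher than in BALB/c (log2 2.17 ± 0.25, adjusted p = 0.000444). Both calls held in all 17 alternative fits listed with the processing, with a log2 fold change of 0.99 to 1.21 against C57BL/6. In BALB/c it was 2.13-fold lower than in C57BL/6 (log2 -1.09 ± 0.25, adjusted p = 0.0463). That last call held in only 7 of the 17 alternative fits. It was lost with library size alone as the scaling, with the replicate block and with only the 2 groups compared in the fit. It was also lost when any library other than IL-6 KO replicate 2 or BALB/c replicate 1 was left out, at adjusted p-values of 0.0641 to 0.131. Without BALB/c replicate 2 the log2 value was -0.84 (adjusted p = 0.104).

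Lgr6 (chromosome 1, positions 134983301 to 135105276, minus strand), whose upstream bases are given above, stood at 20.6, 33.6 and 22.9 CPM in the IL-6 KO-labelled libraries, 94.4, 56.9 and 91.6 CPM in BALB/c and 45.5, 46.2 and 57.4 CPM in C57BL/6. The IL-6 KO-labelled libraries lay below each other library, and BALB/c replicate 2 lay just under the highest C57BL/6 library. Lgr6 was lower in IL-6 KO-labelled skin, by 1.92-fold against C57BL/6 (log2 -0.94 ± 0.24, adjusted p = 0.0149) and by 3.14-fold against BALB/c (log2 -1.65 ± 0.24, adjusted p = 0.00117). The call against C57BL/6 was lost without IL-6 KO replicate 1, IL-6 KO replicate 3 or C57BL/6 replicate 3, at adjusted p-values of 0.0538 to 0.0623. In BALB/c against C57BL/6, Lgr6 had a log2 fold change of 0.71 ± 0.23 (adjusted p = 0.141).

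The 2 receptors thus took opposite orders over the groups, and their ratio within a library does not depend on scaling. There were 1.42, 0.733 and 1.25 Lgr5 reads per Lgr6 read in the IL-6 KO-labelled libraries, against 0.0843, 0.0673 and 0.0708 in BALB/c and 0.257, 0.300 and 0.236 in C57BL/6. No 2 groups overlapped in this ratio. The third receptor of the family, Lgr4, moved with Lgr5: it stood at 130, 72.1 and 98.3 CPM in the IL-6 KO-labelled libraries, 40.1, 38.1 and 43.0 CPM in BALB/c and 60.7, 59.4 and 42.5 CPM in C57BL/6. It was higher in IL-6 KO-labelled skin than in C57BL/6 (log2 0.88 ± 0.22, adjusted p = 0.0121) and BALB/c (log2 1.30 ± 0.22, adjusted p = 0.00207).

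**Figure D2:**
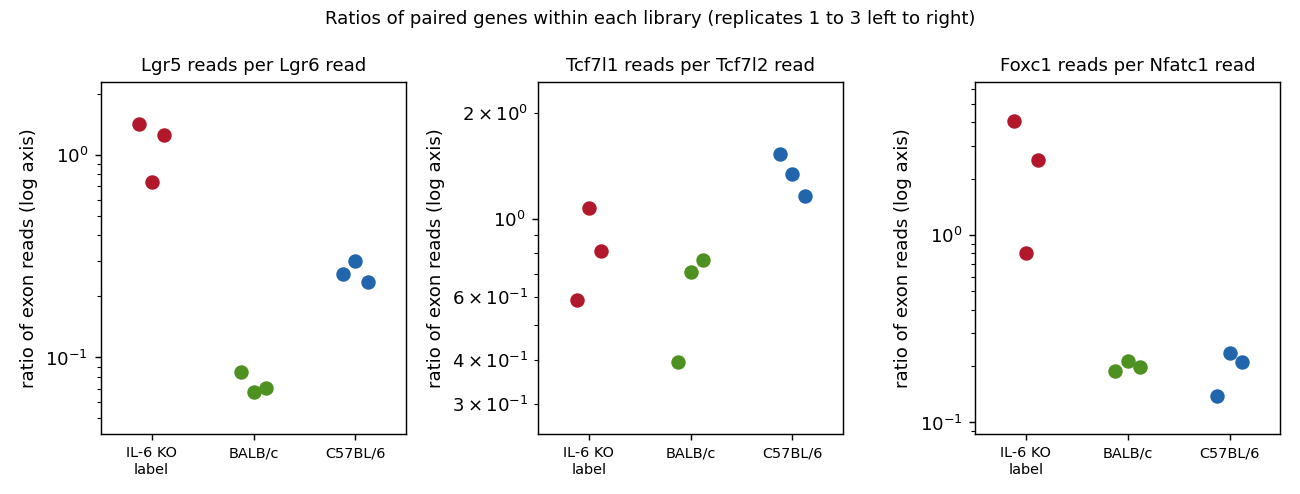
Exon reads of Lgr5 per Lgr6 read, Tcf7l1 per Tcf7l2 read and Foxc1 per Nfatc1 read (y axes, log scale) in each library (x axis, libraries labelled IL-6 KO, BALB/c and C57BL/6). The first ratio separates all 3 groups, at 0.733 to 1.42 in the IL-6 KO-labelled libraries, 0.0673 to 0.0843 in BALB/c and 0.236 to 0.300 in C57BL/6.

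Cd34 (chromosome 1, positions 194938819 to 194961279, plus strand) encodes a surface sialomucin that marks bulge stem cells in mice and is also found on endothelial cells and on dermal and adipose stromal cells. It stood at 164, 346 and 175 CPM in the IL-6 KO-labelled libraries, 223, 362 and 324 CPM in BALB/c and 464, 262 and 393 CPM in C57BL/6. The groups overlapped, and replicate 2 was the high library of the IL-6 KO label and the low library of C57BL/6. No comparison called it: the log2 fold change was -0.71 (95% interval -1.45 to 0.04, adjusted p = 0.125) in IL-6 KO against C57BL/6, -0.30 ± 0.33 in BALB/c against C57BL/6 (adjusted p = 0.666) and -0.41 ± 0.33 in IL-6 KO against BALB/c (adjusted p = 0.355). Without IL-6 KO replicate 2 the 2 comparisons of the IL-6 KO label passed, at -1.14 (adjusted p = 0.0103) against C57BL/6 and -0.84 (adjusted p = 0.0341) against BALB/c. Most Cd34 reads did not map uniquely: unique reads made up 35.5% to 38.7% of its exon reads in the IL-6 KO-labelled libraries, 26.4% to 30.2% in BALB/c and 36.6% to 37.9% in C57BL/6, against at least 93.5% for each of the other 9 genes. With unique reads alone, the log2 fold change of Cd34 in IL-6 KO against BALB/c was 0.02 (adjusted p = 0.966) and that in BALB/c against C57BL/6 was -0.74 (adjusted p = 0.262). Other cells of skin also carry Cd34. Of the endothelial markers, 9 of 10 were lower in IL-6 KO against C57BL/6, where 16.0% of all genes were lower. Their summed level was 179 to 224 CPM in the IL-6 KO-labelled libraries, 177 to 380 CPM in BALB/c and 382 to 593 CPM in C57BL/6, with no marker at 0 in a whole group. Within the IL-6 KO label this sum was highest in replicate 2, as Cd34 was, at 183, 224 and 179 CPM in replicates 1 to 3. Within C57BL/6 it was lowest in replicate 2, again as Cd34 was, at 450, 382 and 593 CPM. In BALB/c the order of this sum, at 380, 261 and 177 CPM in replicates 1 to 3, ran against that of Cd34, which was lowest in replicate 1. The 9 fibroblast markers, of which 0 were called in any comparison and 0 were at 0 in a whole group, summed to 5271, 16903 and 11416 CPM in the IL-6 KO-labelled libraries, against 4348, 11121 and 12014 CPM in BALB/c and 51938, 8229 and 22340 CPM in C57BL/6. Like Cd34, this sum was highest in replicate 2 within the IL-6 KO label, lowest in replicate 1 within BALB/c and lowest in replicate 2 within C57BL/6. Within BALB/c the sum was highest in replicate 3, whereas Cd34 was highest in replicate 2. The collagen genes Col1a1, Col1a2 and Col3a1 made up most of the sum in each library. The part of either cell type in the Cd34 values was not tested. In whole skin, fewer cells of a type and less RNA per cell cannot be told apart for any of these genes.

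Sox9 and Lhx2 encode transcription factors of bulge cells, an SRY-box protein needed to set up and keep the stem cells and a LIM homeodomain protein that keeps them undifferentiated. Sox9 (chromosome 11, positions 112782224 to 112787760, plus strand) stood at 77.0, 35.6 and 46.1 CPM in the IL-6 KO-labelled libraries, 24.2, 13.8 and 16.4 CPM in BALB/c and 20.3, 39.1 and 31.4 CPM in C57BL/6. Lhx2 (chromosome 2, positions 38339281 to 38369733, plus strand) stood at 43.9, 24.0 and 36.1 CPM in the IL-6 KO-labelled libraries, 15.3, 7.65 and 15.4 CPM in BALB/c and 13.5, 21.0 and 18.9 CPM in C57BL/6. Both genes were highest in replicates 1 and 3 of the IL-6 KO label. The libraries labelled IL-6 KO lay above all BALB/c libraries for both genes, and above all C57BL/6 libraries for Lhx2 only.

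Against BALB/c, Sox9 was higher in IL-6 KO-labelled skin by 1.54 ± 0.34 on the log2 scale (adjusted p = 0.00787) and Lhx2 by 1.43 ± 0.31 (adjusted p = 0.00724), and both calls held in all 17 alternative fits. Against C57BL/6, Lhx2 was 1.94-fold higher (log2 0.95 ± 0.31, adjusted p = 0.0372). That call was lost without IL-6 KO replicate 1 or 3 or any 1 of the C57BL/6 libraries, at adjusted p-values of 0.0502 to 0.131. Sox9 against C57BL/6 had a log2 fold change of 0.80 ± 0.33 (adjusted p = 0.0897), which passed only when IL-6 KO replicate 2 was left out (1.02, adjusted p = 0.0309). In BALB/c against C57BL/6, Sox9 had a log2 fold change of -0.74 ± 0.34 (adjusted p = 0.276) and Lhx2 one of -0.48 ± 0.31 (adjusted p = 0.443). Sox9 and Lhx2 were also the closest pair among the 10 genes, with a root mean square difference of 0.24 between their centred log2 CPM over the 9 libraries.

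Nfatc1, Tbx1 and Foxc1 encode transcription factors tied to slow cycling or self-renewal of bulge cells in mice. NFATc1 acts downstream of BMP to hold the cells at rest, TBX1 supports their renewal over repeated cycles, and FOXC1 is switched on in activated bulge cells and returns them to rest. Nfatc1 (chromosome 18, positions 80606205 to 80713071, minus strand) stood at 17.5, 38.3 and 18.0 CPM in the IL-6 KO-labelled libraries, 42.3, 40.1 and 46.9 CPM in BALB/c and 60.7, 74.0 and 67.4 CPM in C57BL/6. The 3 groups did not overlap, with C57BL/6 highest, although IL-6 KO replicate 2 lay close to the lowest BALB/c library. Nfatc1 was 2.72-fold lower in IL-6 KO-labelled skin than in C57BL/6 (log2 -1.44 ± 0.27, adjusted p = 0.00363), a call that held in all 17 alternative fits. Against BALB/c it was also lower (log2 -0.80 ± 0.27, adjusted p = 0.0425), but this call held in only 7 of the 17 alternative fits. It was lost with library size alone as the scaling and with only the 2 groups compared in the fit. It was also lost when any library other than IL-6 KO replicate 2 was left out, at adjusted p-values of 0.0543 to 0.150. Without BALB/c replicate 2 the log2 value was -0.87 (adjusted p = 0.0734). BALB/c against C57BL/6 gave -0.64 ± 0.26 (adjusted p = 0.217), which passed with only those 2 groups in the fit (adjusted p = 0.0332) and without IL-6 KO replicate 2 (adjusted p = 0.0141).

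Foxc1 (chromosome 13, positions 31806691 to 31810643, plus strand) stood at 71.1, 30.7 and 45.2 CPM in the IL-6 KO-labelled libraries, 7.96, 8.48 and 9.24 CPM in BALB/c and 8.46, 17.3 and 14.1 CPM in C57BL/6. It showed the highest fold of the 10 genes: 3.67-fold higher in IL-6 KO-labelled skin than in C57BL/6 (log2 1.88 ± 0.33, adjusted p = 0.00269) and 5.69-fold higher than in BALB/c (log2 2.51 ± 0.34, adjusted p = 0.000855). Both calls held in all 17 alternative fits. Tbx1 (chromosome 16, positions 18581713 to 18586969, minus strand) stood at 35.2, 19.1 and 37.2 CPM in the IL-6 KO-labelled libraries, 8.28, 11.8 and 8.92 CPM in BALB/c and 9.53, 15.7 and 17.6 CPM in C57BL/6. For both genes the lowest library of the IL-6 KO label, replicate 2, was still above each other library. Tbx1 was 2.13-fold higher than in C57BL/6 (log2 1.09 ± 0.30, adjusted p = 0.0207) and higher by 1.65 ± 0.31 on the log2 scale than in BALB/c (adjusted p = 0.00364). The call against C57BL/6 was lost without IL-6 KO replicate 1, IL-6 KO replicate 3 or C57BL/6 replicate 1, at adjusted p-values of 0.0656 to 0.0838. In BALB/c against C57BL/6 the log2 fold changes were -0.63 ± 0.34 for Foxc1 (adjusted p = 0.352) and -0.56 ± 0.31 for Tbx1 (adjusted p = 0.366).

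Foxc1 was higher and Nfatc1 lower in both comparisons of the IL-6 KO label, whereas in BALB/c against C57BL/6 neither was called and both values were negative. There were 4.08, 0.803 and 2.51 Foxc1 reads per Nfatc1 read in the IL-6 KO-labelled libraries, against 0.188, 0.212 and 0.197 in BALB/c and 0.139, 0.234 and 0.209 in C57BL/6. The libraries labelled IL-6 KO stood above all others, and BALB/c and C57BL/6 overlapped.

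Tcf7l1 and Tcf7l2 encode TCF3 and TCF4, the TCF factors of resting follicle stem cells, which in mouse skin largely repress Wnt targets until beta-catenin arrives. Tcf7l1 (chromosome 6, positions 72626378 to 72789254, minus strand) stood at 16.4, 17.1 and 19.3 CPM in the IL-6 KO-labelled libraries, 11.3, 12.8 and 11.2 CPM in BALB/c and 24.6, 22.1 and 21.7 CPM in C57BL/6. The 3 groups did not overlap, with C57BL/6 highest and BALB/c lowest, and the spread within a group was the tightest of the 10 genes in IL-6 KO-labelled skin (SD 1.52 CPM). Tcf7l1 was 1.94-fold lower in BALB/c than in C57BL/6 (log2 -0.95 ± 0.15, adjusted p = 0.00914), at -1.01 (adjusted p = 0.0383) without BALB/c replicate 2, and leaving out BALB/c replicate 3 ended the call (adjusted p = 0.0571). It was higher in IL-6 KO-labelled skin than in BALB/c (log2 0.58 ± 0.15, adjusted p = 0.0143), a call lost without IL-6 KO replicate 3 or BALB/c replicate 3, at adjusted p-values of 0.0572 to 0.0625. Against C57BL/6 the log2 value was -0.37 ± 0.15 (adjusted p = 0.0735).

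Tcf7l2 (chromosome 19, positions 55741810 to 55933654, plus strand) stood at 27.8, 15.9 and 23.8 CPM in the IL-6 KO-labelled libraries, 28.7, 18.1 and 14.6 CPM in BALB/c and 16.1, 16.4 and 18.8 CPM in C57BL/6. The groups overlapped, and none of the 3 comparisons called it, nor did any of the 17 alternative fits. Its log2 fold change was 0.39 (95% interval -0.23 to 1.01, adjusted p = 0.298) in IL-6 KO against C57BL/6, 0.26 ± 0.27 in BALB/c against C57BL/6 (adjusted p = 0.650) and 0.13 ± 0.28 in IL-6 KO against BALB/c (adjusted p = 0.738). The ratio of Tcf7l1 to Tcf7l2 reads was 0.590, 1.08 and 0.813 in the IL-6 KO-labelled libraries, against 0.394, 0.706 and 0.767 in BALB/c and 1.52, 1.35 and 1.16 in C57BL/6. It was above 1.1 in each C57BL/6 library and below that in each other library.

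**Figure D3:**
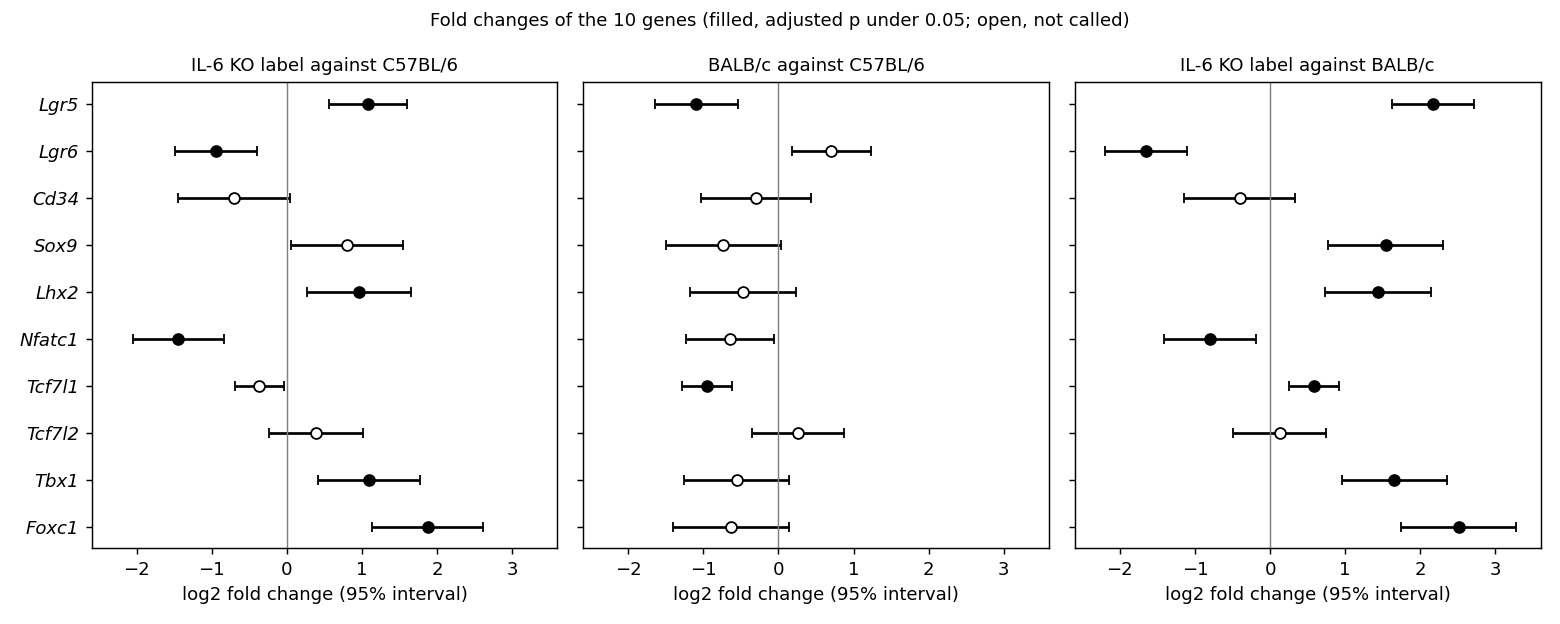
Log2 fold changes of the 10 genes (x axis) with 95% intervals in IL-6 KO-labelled skin against C57BL/6, BALB/c against C57BL/6 and IL-6 KO-labelled skin against BALB/c. Filled points have an adjusted p under 0.05. Foxc1 lies farthest to the right in both comparisons of the IL-6 KO label, at 1.88 and 2.51, and Nfatc1 and Lgr6 lie farthest to the left, at -1.44 and -1.65.

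Over the 10 genes, 5 (Lgr5, Sox9, Lhx2, Tbx1 and Foxc1) had their highest mean in IL-6 KO-labelled skin and their lowest in BALB/c. Cd34 and Nfatc1 had the order C57BL/6, BALB/c, IL-6 KO from high to low, and Lgr6, Tcf7l1 and Tcf7l2 each had an order of its own. Within the IL-6 KO label, replicate 2 was the lowest of the 3 libraries for 6 genes (Lgr5, Sox9, Lhx2, Tcf7l2, Tbx1 and Foxc1), the highest for 3 (Lgr6, Cd34 and Nfatc1) and in between for Tcf7l1. Without this library, 8 of the 10 genes were called against C57BL/6 and 9 against BALB/c, where 46.1% and 47.8% of all genes were called in the same fits. Without BALB/c replicate 2, 7 of the 10 were called in IL-6 KO against BALB/c, where 25.8% of all genes were, and 1, Tcf7l1, in BALB/c against C57BL/6, where 1.21% were. In that fit, the log2 fold changes in IL-6 KO against BALB/c were 1.90 for Lgr5, -1.87 for Lgr6, 1.35 for Sox9, 1.14 for Lhx2, 1.79 for Tbx1, 2.48 for Foxc1 and 0.62 for Tcf7l1, all called at adjusted p-values of 0.00190 to 0.0347. Cd34 was then at -0.28 (adjusted p = 0.612) and Tcf7l2 at 0.03 (adjusted p = 0.959). Without that library, the uncalled values in BALB/c against C57BL/6 were 0.92 for Lgr6, -0.44 for Cd34, -0.57 for Sox9, -0.21 for Lhx2, -0.58 for Nfatc1, 0.35 for Tcf7l2, -0.71 for Tbx1 and -0.61 for Foxc1, at adjusted p-values of 0.0950 to 0.778. Per 10000 reads of Krt5 and Krt14, Nfatc1 had 42.2, 55.2 and 44.0 reads in the IL-6 KO-labelled libraries, against 68.9, 78.7 and 72.6 in BALB/c and 142, 110 and 138 in C57BL/6. On this scale Lgr5 had 71.0, 35.5 and 69.9 reads in the IL-6 KO-labelled libraries, against 13.0, 7.51 and 10.1 in BALB/c and 27.3, 20.6 and 27.7 in C57BL/6. The groups of both genes stayed apart on that scale, whereas replicate 2 of the IL-6 KO label then overlapped C57BL/6 for Lhx2 (34.7 against 31.2 to 38.7) and Tbx1 (27.6 against 22.3 to 36.0). Tcf7l1, whose groups were apart in CPM, had 24.7 to 47.1 reads in the IL-6 KO-labelled libraries on this scale, which overlapped both the 17.3 to 25.1 of BALB/c and the 32.8 to 57.5 of C57BL/6.

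Levels of different genes can be set side by side only per length of transcript, for which the deposited RPKM were used. The library size behind these RPKM equals the total gene reads in the IL-6 KO-labelled tables and is 1.02 to 1.03 times that total in the others, so RPKM are compared here between genes within a group. Cd34 had the highest RPKM of the 10 genes in each group, at 43.7 ± 21.7 in IL-6 KO-labelled skin, 53.1 ± 12.5 in BALB/c and 63.1 ± 15.5 in C57BL/6 (SD, n = 3 each). Counting unique reads only, Cd34 was at 16.4 ± 8.75, 14.6 ± 2.53 and 23.6 ± 6.20 in the same groups. These values keep the full exon length, so they can understate Cd34, most of whose reads were not unique. In IL-6 KO-labelled skin Tbx1, at 16.4 ± 4.90 RPKM, did not differ from that unique-read value beyond the spread. The next levels in IL-6 KO-labelled skin were those of Sox9 (12.1 ± 4.20), Foxc1 (11.8 ± 4.23) and Lhx2 (7.52 ± 1.80 RPKM). Within each of these libraries Tbx1 was above Sox9 and Foxc1, and both were above Lhx2. Sox9 and Foxc1 changed places between libraries. In C57BL/6 the second gene was Nfatc1 (7.92 ± 1.18 RPKM), followed by Tbx1 (6.99 ± 2.02), Sox9 (6.42 ± 2.28) and Lgr6 (6.30 ± 0.54). Neighbours in this order changed places between libraries, but Nfatc1 was above Sox9 and Lgr6 in each C57BL/6 library. In BALB/c the second gene was Lgr6 (10.6 ± 2.82 RPKM), and Foxc1 was the ninth at 1.94 ± 0.17. Lgr5 was at 2.58 ± 0.14 RPKM in IL-6 KO-labelled skin, 0.532 ± 0.185 in BALB/c and 1.11 ± 0.14 in C57BL/6, the lowest of the 10 in BALB/c and C57BL/6.

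Other markers of the bulge and isthmus also moved in both directions in the comparisons of the IL-6 KO label. Of 13 listed, 4 were higher and 3 lower in IL-6 KO against C57BL/6, 0 were called in BALB/c against C57BL/6, and 4 were higher and 2 lower in IL-6 KO against BALB/c. Over all genes tested, 35.2%, 3.41% and 37.3% were called in these comparisons. The median log2 fold changes of the list were -0.09, -0.19 and -0.09. Runx1, a transcription factor that promotes activation of follicle stem cells, was at 57.9, 43.4 and 48.0 CPM in the IL-6 KO-labelled libraries, 11.6, 11.8 and 12.7 CPM in BALB/c and 12.5, 11.0 and 11.5 CPM in C57BL/6 (log2 2.09 ± 0.15 against C57BL/6, adjusted p = 0.000279). Cdh3, the P-cadherin of hair germ and matrix, was higher by 1.74 ± 0.30 on the log2 scale against C57BL/6 (adjusted p = 0.00255), and Hopx, a homeodomain protein of bulge and inner bulge cells, by 1.62 ± 0.22 (adjusted p = 0.000903). Krt15, the keratin most used to mark the bulge, went the other way, at 369, 729 and 381 CPM in the IL-6 KO-labelled libraries, 1348, 989 and 1539 CPM in BALB/c and 1986, 3598 and 1826 CPM in C57BL/6. Krt15 was lower in IL-6 KO-labelled skin against C57BL/6 (log2 -2.33 ± 0.37, adjusted p = 0.00174) and against BALB/c (log2 -1.39 ± 0.36, adjusted p = 0.0150), and its 3 groups did not overlap.

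Around the LGR receptors and TCF factors, 9 of 18 tested genes of the R-spondin and Wnt pathway were higher and 1 was lower in IL-6 KO against C57BL/6, 0 were called in BALB/c against C57BL/6, and 10 were higher and 0 lower in IL-6 KO against BALB/c. The list had medians of 0.67, -0.25 and 0.81. Over all genes tested, 35.2%, 3.41% and 37.3% were called in these comparisons. The same shares stand beside the relatives counted below. Lef1, the activating partner of beta-catenin in hair matrix and precortex, was at 83.6, 16.7 and 75.1 CPM in the IL-6 KO-labelled libraries, 1.75, 0.665 and 1.46 CPM in BALB/c and 1.38, 1.34 and 2.23 CPM in C57BL/6 (log2 5.15 ± 0.63 against C57BL/6, adjusted p = 0.000633). Tcf7, which encodes TCF1, was at 50.2, 15.7 and 42.2 CPM in the IL-6 KO-labelled libraries, 7.48, 6.32 and 6.00 CPM in BALB/c and 4.61, 6.56 and 6.50 CPM in C57BL/6 (log2 2.61 ± 0.39 against C57BL/6, adjusted p = 0.00138). So of the TCF and LEF family, Lef1 and Tcf7 were called higher against C57BL/6 and Tcf7l1 and Tcf7l2 were not called. Ctnnb1, which encodes beta-catenin, was higher by 0.92 ± 0.19 (adjusted p = 0.00510), and Rspo4, a ligand of the LGR receptors, by 2.42 ± 0.59 (adjusted p = 0.0116). Among 11 tested relatives of the 10 genes in their own families, Lef1, Tcf7 and Lgr4 included, 3 were higher and 4 lower against C57BL/6, 0 were called in BALB/c against C57BL/6, and 3 were higher and 3 lower in IL-6 KO against BALB/c (medians -0.78, -0.32 and -0.24). One of those lower was the T-box gene Tbx15 (log2 -1.79 ± 0.26 against C57BL/6, adjusted p = 0.00117), opposite to Tbx1.

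Of 11 genes of signals that hold the bulge at rest, 2 were higher and 2 lower in IL-6 KO against C57BL/6, 0 higher and 1 lower in BALB/c against C57BL/6, and 5 higher and 1 lower in IL-6 KO against BALB/c (medians 0.35, -0.26 and 0.68). Over all genes tested, 35.2%, 3.41% and 37.3% were called in these comparisons. The calls in IL-6 KO against C57BL/6 were thus near the share of all genes. Fgf18, a ligand made by bulge cells at rest, was at 1.85, 2.44 and 1.27 CPM in the IL-6 KO-labelled libraries, 4.78, 7.82 and 7.62 CPM in BALB/c and 7.07, 6.26 and 8.73 CPM in C57BL/6. It was lower in IL-6 KO-labelled skin than in C57BL/6 (log2 -1.97 ± 0.34, adjusted p = 0.00235). The secreted Wnt inhibitor Wif1 went the other way, at 46.0, 12.8 and 32.9 CPM in the IL-6 KO-labelled libraries, 4.94, 3.49 and 5.19 CPM in BALB/c and 2.00, 3.73 and 7.80 CPM in C57BL/6 (log2 2.77 ± 0.54 against C57BL/6, adjusted p = 0.00423). Dkk3, which encodes a Dickkopf family protein, was lower in BALB/c than in C57BL/6 (log2 -0.74 ± 0.16, adjusted p = 0.0408).

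Several lists of markers of other cells in the skin differed between the groups. Over all genes tested, 35.2% were called in IL-6 KO against C57BL/6, 3.41% in BALB/c against C57BL/6 and 37.3% in IL-6 KO against BALB/c. Of 21 genes of hair matrix and inner root sheath, 20 were higher in IL-6 KO-labelled skin against C57BL/6 and 20 against BALB/c, and 0 were called in BALB/c against C57BL/6. Their summed level was 74855, 18436 and 52580 CPM in the IL-6 KO-labelled libraries, 171, 153 and 179 CPM in BALB/c and 913, 368 and 161 CPM in C57BL/6, and 1 of the 21 was at 0 in all BALB/c libraries. Replicate 2, the lowest library of the IL-6 KO label in this sum, was also the lowest for 6 of the 10 stem cell genes. Outer root sheath and companion layer keratins summed to 3809 to 4068 CPM in the IL-6 KO-labelled libraries, 575 to 676 CPM in BALB/c and 694 to 1101 CPM in C57BL/6, with 5 of 6 higher in both comparisons of the IL-6 KO label. Proliferation genes summed to 353 to 803 CPM in the IL-6 KO-labelled libraries, 188 to 228 CPM in BALB/c and 128 to 199 CPM in C57BL/6, with 9 of 10 higher against C57BL/6 and 10 of 10 against BALB/c. The sums of basal keratinocyte markers, most of which came from Krt5 and Krt14, overlapped. They were 4772 to 8002 CPM in the IL-6 KO-labelled libraries, 6302 to 7856 CPM in BALB/c and 5751 to 8395 CPM in C57BL/6. Of the single genes, 3 of 8 were lower against C57BL/6 and 1 of 8 against BALB/c. Skeletal muscle markers summed to 8448 to 9572 CPM in the IL-6 KO-labelled libraries, 23191 to 50151 CPM in BALB/c and 45599 to 84125 CPM in C57BL/6, with 9 of 10 lower in both comparisons of the IL-6 KO label and 1 of 10 lower in BALB/c against C57BL/6. All 5 melanocyte genes were higher in IL-6 KO-labelled skin against both groups, at a sum of 63.9 to 811 CPM, against 8.65 to 15.6 CPM in BALB/c and 14.9 to 22.4 CPM in C57BL/6. Their part in the values of the 10 genes was not tested.

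The remaining lists had these calls, beside the same shares of all genes as above. Of 9 fibroblast genes none was called, and of 6 immune genes 1 was lower in IL-6 KO against C57BL/6 alone. Of 5 mast cell genes, Kit alone was higher, in both comparisons of the IL-6 KO label. Of 8 adipocyte genes 4 were lower in IL-6 KO against BALB/c and none was called in the others. Of 5 sebaceous genes Elovl3 alone was called, higher in each of the 3 comparisons. Endothelial markers were lower for 1 of 10 in BALB/c against C57BL/6 and for 3 of 10 in IL-6 KO against BALB/c. Without BALB/c replicate 2, the counts in IL-6 KO against BALB/c that differed were 1 lower among bulge and isthmus markers, 4 higher among signals that hold the bulge at rest, 8 higher in the R-spondin and Wnt list, 8 higher among proliferation genes, 1 lower among endothelial, 7 lower among muscle and 5 lower among adipocyte markers, and 0 among sebaceous genes. The count that differed in BALB/c against C57BL/6 was that of signals holding the bulge at rest, with 0 lower, so Dkk3 was not called there. In that fit, 25.8% of all genes were called in IL-6 KO against BALB/c and 1.21% in BALB/c against C57BL/6.

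**Figure D4:**
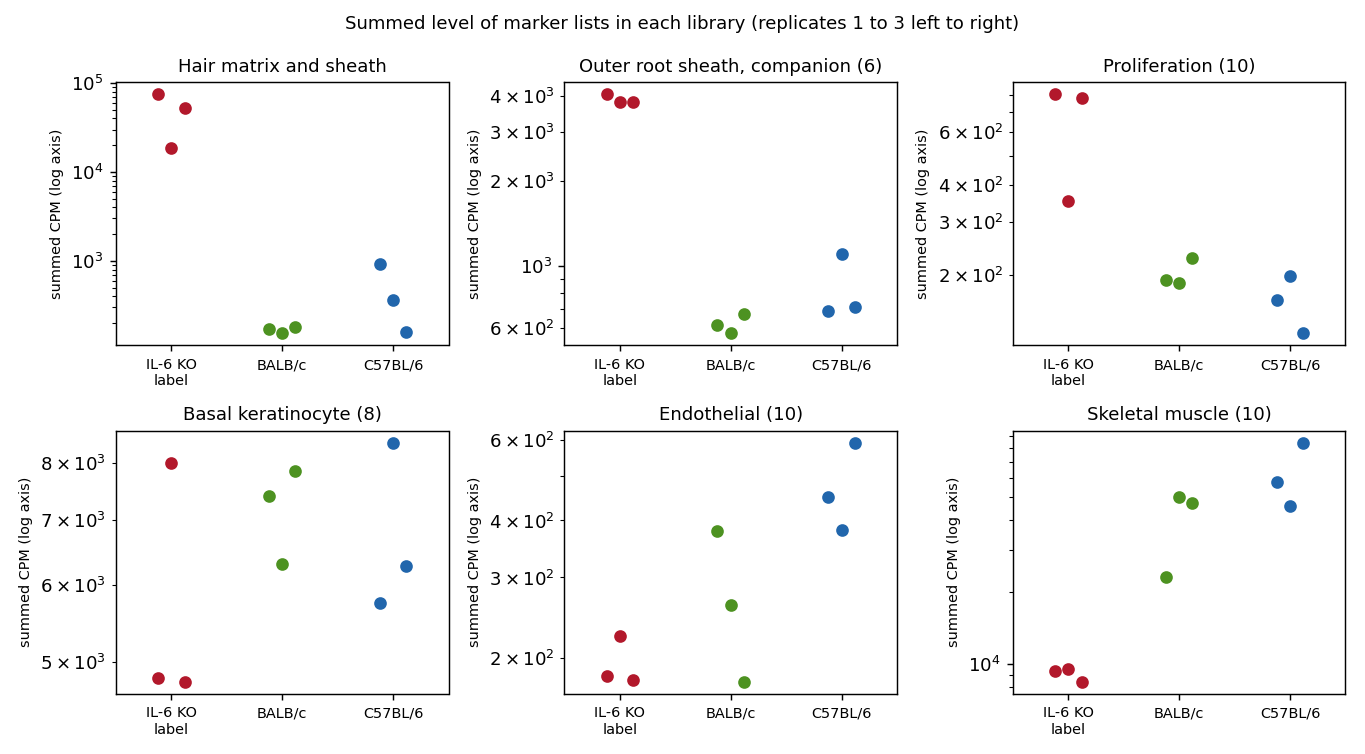
Summed normalised CPM (y axes, log scale) of hair matrix and sheath, outer root sheath and companion, proliferation, basal keratinocyte, endothelial and skeletal muscle lists in each library (points), for the IL-6 KO-labelled libraries, BALB/c and C57BL/6. Hair matrix and sheath genes reach 18436 to 74855 CPM in the IL-6 KO-labelled libraries and at most 913 CPM in the others. The sums of basal keratinocyte genes overlap, although 3 of these 8 genes were lower in IL-6 KO against C57BL/6.

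The genes whose pattern over the 9 libraries was most like that of each stem cell gene were ranked among 11921 genes by the root mean square difference of centred log2 CPM, which the shared group differences shape. Foxc1 was closest to Krt17 (0.19), a keratin of the outer root sheath, and Rab15 (0.21). Nfatc1 was closest to Itgb4 (0.16) and Col17a1 (0.17), which encode hemidesmosome proteins of basal keratinocytes. Cd34 was closest to Islr (0.09) and Scara3 (0.12). Sox9 was closest to Lhx2 (0.24) and Sipa1l2 (0.28), whereas Lhx2 was closest to Pex26 (0.22) and Wnk4 (0.23). Lgr5 was closest to Slc45a3 (0.26) and Fam167a (0.27), and Lgr6 to Emc9 (0.23) and Smim10l1 (0.23). Tbx1 was closest to Nab2 (0.21) and Spats2 (0.21), Tcf7l1 to Mri1 (0.09) and Ift27 (0.14), and Tcf7l2 to Entpd6 (0.10).

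Reads spanning 2 exons and mapping uniquely, counted separately in the deposited tables, gave a second reading of the calls, chosen after the data were seen. Foxc1 has a single exon, so 9 genes could be read this way. Of them, 3 were called in IL-6 KO against C57BL/6, 1 in BALB/c against C57BL/6 and 5 in IL-6 KO against BALB/c, where 28.6%, 1.67% and 32.0% of all genes were called from such reads. Cd34 shares 148 exon bases with the antisense gene Gm16897, which had 0 to 8 reads in a library, and Tcf7l1 shares 179 with the antisense gene Gm15401, which had 0 to 3 reads. Whether the counting used strand is not stated.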

How the data were processed

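RNA-seq of mouse skin was read in 9 libraries, grouped by the labels. The deposited counts are raw exon reads per gene, per the file headers, on GRCm38, per the submitters' processing notes. The aligner was not given in the sources used here. RPKM values, deposited by the authors beside the counts, divide reads by exon length and library size and served for levels between genes. The deposited table of C57BL/6 replicate 1 holds 3 stacked tables, of which the first was used. Total exon reads were tested in R 4.3.3 with edgeR 4.0.16: filterByExpr (minimum count 10, minimum total 15) left 14415 genes, TMM factors were 0.887 to 1.10, and all 9 libraries entered 1 quasi-likelihood fit with a coefficient per group. P-values were adjusted by Benjamini-Hochberg over all genes tested (threshold 0.05). The SE is the log2 fold change divided by the square root of F, and intervals use the t distribution with the degrees of freedom of the fit. Library totals of 3843953 to 6882193 reads limit the precision of genes with few reads. A gene is called higher or lower when its adjusted p is under 0.05.

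The 10 genes and all lists were chosen with earlier results of these data known. Named beside the 10 genes are up to 4 members of each list by smallest p, the 2 genes nearest in pattern to each, with a mean of at least 5 CPM, and Il6 as the check of the label. For Tcf7l2, 1 of the 2 is not reported here. Immune marker Itgam was not in the tables. Alternatives were RLE and library size scaling, no filter, a robust variance model, fits of only the groups compared, a replicate block, DESeq2 1.42.0, unique exon reads and leaving out each library, and junction reads were added after seeing the data. The code was tested on simulated data. Promoters are from RefSeq (GRCm38.p6). Python 3.11.15, pandas 2.3.3 and matplotlib 3.10.9 made the tables and figures.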

Additional observations from a re-analysis of the deposited data

How the results depend on the processing

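The number of the 10 genes called was 6 in IL-6 KO against C57BL/6, 2 in BALB/c against C57BL/6 and 8 in IL-6 KO against BALB/c. Leaving out each library in turn gave 3 to 8, 0 to 3 and 6 to 9, and moved the calls over all genes, 5068, 491 and 5370, to 3238 to 6806, 167 to 977 and 3310 to 7044. Other alternatives that moved a count of calls by over 1.5 times were few. In BALB/c against C57BL/6, 1 of the 10 genes was called with library size alone, 1 with the replicate block and 1 with junction reads, and over all genes the replicate block called 255, DESeq2 1033 and junction reads 191. Junction reads cannot read Foxc1, which has a single exon and was called in both comparisons of the IL-6 KO label. Of the other 9 genes they called 3 in IL-6 KO against C57BL/6, with 3270 of all genes, and 5 in IL-6 KO against BALB/c. For single genes, the alternatives other than junction reads kept direction and call in 466 values, lost the call in 35, gained one in 5 and reversed direction in 4. The reversals were of genes not called. Tcf7l2 in BALB/c against C57BL/6 was at a log2 fold change of -0.052 to 0.46 over the 9 fits without 1 library each and at -0.044 with junction reads. Tcf7l2 in IL-6 KO against BALB/c was at -0.081 to 0.42 over those 9 fits, negative without IL-6 KO replicate 1 (-0.044) or BALB/c replicate 3 (-0.081). Cd34 in IL-6 KO against BALB/c was at 0.021 with unique exon reads. The causes were not tested, except that fewer samples or reads enter the leave-one-out and junction values.

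Replicate numbers did not pair the libraries in all 3 comparisons. Same-numbered libraries had correlations of -0.21 to 0.06 in their deviations from group means, others -0.09 to 0.14. Between the IL-6 KO label and BALB/c the same-numbered pairs were highest, at 0.062, 0.058 and 0.041, against -0.082 to 0.009 for others. Same-numbered pairs with a C57BL/6 library were at -0.21 to -0.029, against -0.092 to 0.14 for others. With the replicate block, 5, 1 and 8 of the 10 genes and 4275, 255 and 4551 of all genes were called in the 3 comparisons; Lhx2 in IL-6 KO against C57BL/6 (adjusted p = 0.0625) and Lgr5 in BALB/c against C57BL/6 (adjusted p = 0.0871) were the stem cell genes that lost a call. Depth limits the precision of Lgr5 in BALB/c, at 3.82 to 7.96 CPM.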
